A study of Homo sapiens with 6 samples.

Results

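The genes described are 56 human genes of the DNA replication machinery: the proteins that mark and license origins, the replicative helicase and its activators, the S phase kinases, the replicative polymerases, the sliding clamp with its loader, and the proteins that join, protect and repackage the new strands. They were chosen by gene symbol from knowledge of their function, with earlier results of these data known. All 56 symbols were found among the 58735 genes of the count table, and all 56 were among the 13822 genes with enough counts to be tested. RNA was sequenced from MOLM-13, an established human line derived from acute myeloid leukaemia, which has a KMT2A-MLLT3 fusion gene and an FLT3 gene with an internal tandem duplication. The submitters describe 3 independent biological replicates of untreated cells and 3 of cells exposed to 8p, a synthetic kinase inhibitor, at 3.5 nM, 0.5 times the IC50 of 7 nM that the labels give. The series text names RET and CDK kinases as its targets. Both groups were labelled wild type, were cultured in RPMI-1640 with fetal bovine serum, and were kept for 48 hours. Whether controls received the solvent of 8p is not stated.

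A chromosome is copied from many origins, and each origin may fire only once in a cell cycle. In late mitosis and G1 the origin recognition complex recruits CDC6 and CDT1, which load the MCM2-7 ring around DNA in an inactive form. At the start of S phase the kinases CDC7-DBF4 and CDK2-cyclin E convert the ring into the active CMG helicase by adding CDC45 and the GINS complex. The polymerases, the PCNA clamp and the fork proteins then assemble on it. Many of these genes are textbook targets of E2F transcription factors and are expressed mostly from late G1 into S phase, so their RNA level is widely used as a sign of proliferation. No cell cycle measurement was analysed here, and in RNA from whole cultures fewer cells in a cycle phase and less RNA per cell cannot be told apart.

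Control libraries held 18834611 to 23485628 counts and 8p libraries 14972069 to 16210861. The share of counts from mitochondrially encoded genes was 8.80% ± 2.07 in the 8p group, beside 1.77% ± 0.132 in controls (SD, n = 3). In a fit that left those genes out, 55 of the 56 replication genes were called lower with a median log2 fold change of -2.20. Replicate 2 of 8p stood apart from the other two 8p libraries on the principal component that held 3.63% of the variance, and without it 55 of the 56 genes were called lower with a median of -2.18. Without it no replication gene's level moved by over 1.5 times, but RFC5 (log2 fold change -2.34), POLE2 (-3.01), GINS1 (-3.48), GINS2 (-4.74), MCM10 (-5.91), GMNN (-2.57) and CDC6 (-3.93) each moved by more than 0.2 on the log2 scale. The label was checked against 10 myeloid markers, among them FLT3, SPI1 and CD33. All 10 were detected, with a summed level of 2164 to 2308 CPM (a gene's counts per 1000000 counts of the TMM-scaled library) in controls and 5006 to 5717 CPM with 8p, and the part of this difference in the results was not tested. Of the 10, 6 were called higher, among them LYZ (1040.2 to 3732 CPM, the bulk of the difference in the sum), HOXA9, CD33 and MPO were called lower, and MEIS1 was not called. The T and NK cell list (4 of 7 tested) summed to 34.5 to 36.9 and 34.3 to 45.1 CPM, with CD8A at 0, CD3D (log2 fold change -2.64) and TRAC (-1.42) lower, and NKG7 (0.78) and GNLY (2.95) higher. The B cell list (2 of 5 tested) summed to 1.48 to 1.69 and 1.5 to 2.29 CPM, with PAX5 at 0. None of the 6 erythroid and megakaryocyte markers had enough counts to be tested, and 4 were at 0. The epithelial and fibroblast list (3 of 7 tested) summed to 9.74 to 10.3 CPM in controls and 31.6 to 41.8 CPM with 8p, with EPCAM, KRT19, COL1A2 and DCN at 0 in every library. COL1A1 rose from a mean of 0.542 to 31.8 CPM (log2 fold change 5.80) and made up most of that sum with 8p, while KRT8 was higher (1.11) and KRT18 lower (-1.47).

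The replication genes were lower with 8p almost without exception. Of 56 genes, 55 were called lower (98.2%) at an adjusted p under 0.05 (edgeR quasi-likelihood test, Benjamini-Hochberg adjustment over all genes tested), where 36.9% of all tested genes were called lower. None of the 56 was called higher, at an unadjusted p under 0.05 or by DESeq2 either, against 37.9% of all tested genes called higher. The one gene not called was ORC4, a subunit of the origin recognition complex. The median log2 fold change was -2.19, a level 4.56-fold lower, beside 0.03 for all tested genes. A call with at least a 2-fold lower level held for 51 genes (91.1%), against 17.5% of all tested genes. At least 4-fold lower were 33 genes (58.9%, against 5.38%), and at least 8-fold lower were 15 (26.8%, against 1.77%). In 55 of the genes every 8p library lay below every control library, which was so for 38.0% of tested genes. Together the 56 genes made up 0.719% ± 0.00931 of the counts in controls and 0.179% ± 0.00723 in the 8p libraries (SD, n = 3).

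**Figure D1:**
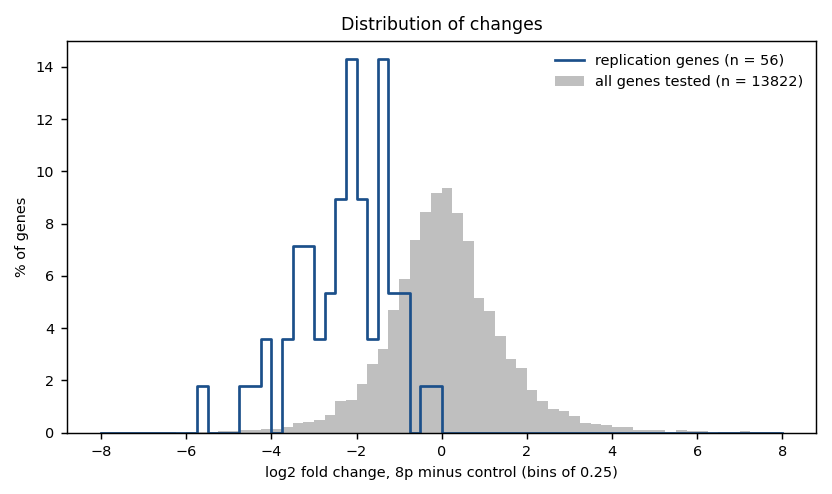
Distribution of the log2 fold change of 8p against control in bins of 0.25, as a percentage of genes, for all 13822 tested genes (grey bars) and the 56 replication genes (blue line). All genes centre on a median of 0.03, while the replication genes centre on -2.19 and none lies above 0.

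The sequences around the start sites of the genes were searched for the motifs of known cell cycle regulators. RefSeq start sites of build GRCh38.p14 gave promoter windows, from 250 bases before to 50 bases after a start, for 47 of the 56 genes (60 windows, since some genes have several starts). The windows were searched on both strands for the E2F motif written as TTTGGCGC, TTTCGCGC, TTTCCCGC or TTTGCCGC. A match was present in 23 of 60 windows (38.3%), against 5.04% of the windows of all tested genes and 3.31% of all windows of that length. The E-box CACGTG, which Myc proteins can bind, was in 16.7% of the replication gene windows and 9.69% of those of tested genes. The CCAAT box was in 51.7% and 34.7%. The cell cycle genes homology region TTTGAA was in 3.33% and 10.6%. The E2F matches fell in 23 genes at 27 separate places, 4 of which were a pair of overlapping matches on opposite strands, and 22 of the 27 began between 100 bases before and 50 bases after the start. Of the 27, 4 began after the RefSeq start, inside that transcript. The 23 genes with a match had a median log2 fold change of -2.37 (range -4.48 to -0.86) and the 24 genes with a window but no match one of -1.93 (range -5.69 to -0.07), so the ranges overlapped widely. A match is only a run of letters, and binding was not measured.

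The sites shown here were chosen to span the range of falls, from GINS2 and CDC6, among the largest, to ORC3, among the smallest. Each line reads 5′ to 3′ along the gene's own strand, and the capitals mark the E2F match, with 9 bases on each side.
GINS2: ctcgccgtgGCGGGAAAacggcggcc
CDC6: ccattcggaTTTGGCGCgagcgcggc
MCM2: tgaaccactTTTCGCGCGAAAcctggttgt
POLE2: gcggcggtgGCGCCAAAtcgcaaata
TIPIN: ccgcacggaTTTGGCGCCAAAcgctgcggg
RFC3: ttggagctcGCGGGAAAacttgtctc
CDT1: agggcgcccGCGGGAAAtttggcggg
MCM7: ggggcgacgTTTCGCGCcaatttcgg
MCM3: ttcggaagtTTTCGCGCcggggtgga
PCNA: gcgtcagggGCGGGAAAaggcgtgcg
ORC3: cgagggcgcGCGGGAAAtcccgagtg
In GRCh38.p14 these stretches are chr16:85688969-85688994 (minus strand) for GINS2, chr17:40287877-40287902 (plus strand) for CDC6 and chr3:127598404-127598433 (plus strand) for MCM2. They are chr14:49688203-49688228 (minus strand) for POLE2, chr15:66356731-66356760 (minus strand) for TIPIN, chr13:33818085-33818110 (plus strand) for RFC3 and chr16:88803745-88803770 (plus strand) for CDT1. The others are chr7:100101390-100101415 (minus strand) for MCM7, chr6:52284730-52284755 (minus strand) for MCM3, chr20:5126665-5126690 (minus strand) for PCNA and chr6:87590114-87590139 (plus strand) for ORC3. The MCM2 and TIPIN stretches hold overlapping matches on both strands, so that their capitals run over more bases than those of the other genes. All the stretches shown except that of PCNA lie inside the gene as the count table places it, where the gene starts further upstream than the RefSeq start used. The genes in these lines differed widely in their fall: GINS2 had a log2 fold change of -4.48 and ORC3 one of -0.86, and both carry the same letters, GCGGGAAA.

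**Figure D2:**
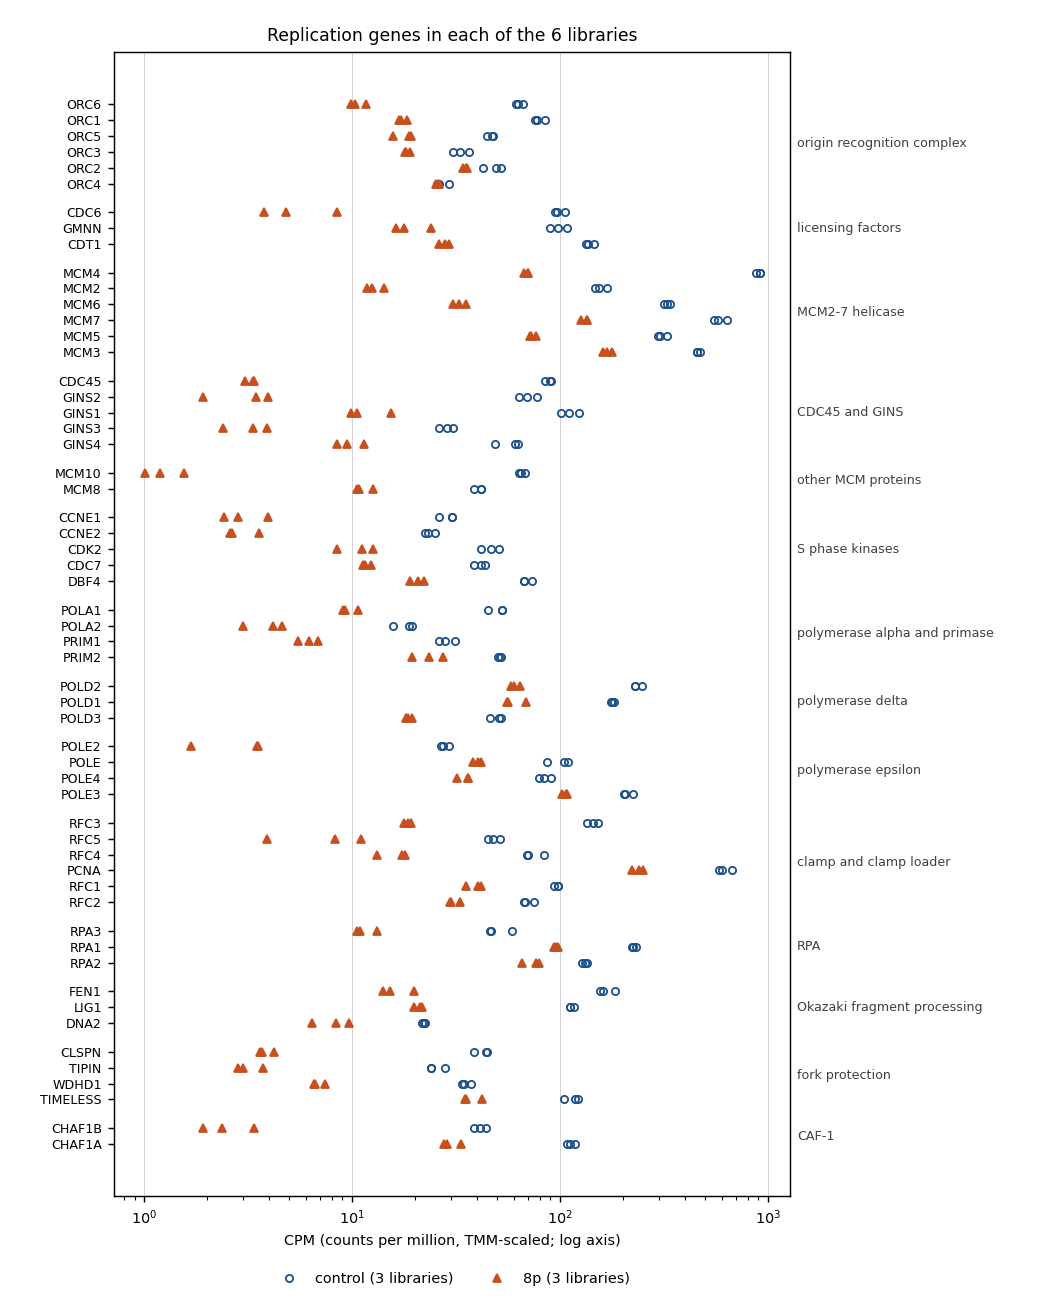
Level of each of the 56 replication genes in each of the 6 libraries, in CPM on a log axis, with open circles for the 3 control libraries and triangles for the 3 8p libraries, grouped by role. The 2 groups of points are apart in 55 genes, and in ORC4 they overlap.

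The origin recognition complex (ORC1 to ORC6), which binds origins and serves as the platform for licensing, changed unevenly. Of its 6 subunits 5 were called lower, and the median log2 fold change was -1.12. ORC6, the smallest subunit, was at 61.4, 62.9 and 66.5 CPM in control replicates 1 to 3 and at 9.92, 10.4 and 11.7 CPM in 8p replicates 1 to 3, the order in which all values below are given. All 3 8p libraries were far below the controls (log2 fold change -2.58, SE 0.10, adjusted p = 2.75e-12). ORC1, the subunit whose protein is itself cell cycle regulated in human cells, was 4.54-fold lower (log2 fold change -2.18, SE 0.09), with 79.4 ± 4.47 CPM in controls and 17.5 ± 0.828 CPM with 8p (SD, n = 3). ORC5 (log2 fold change -1.37, SE 0.10), ORC3 (log2 fold change -0.86, SE 0.10) and ORC2 (log2 fold change -0.45, SE 0.09) fell less. ORC4 (chr2:147930397-148021604, hg38) was at 26.3, 25.7 and 29.2 CPM in controls and 26.2, 25.4 and 26 CPM with 8p. These groups overlapped, and the test made no call (log2 fold change -0.07, 95% interval -0.27 to 0.14, adjusted p = 0.543). ORC4's sign turned with upper quartile scaling (0.12) and with protein-coding genes alone (0.02), and neither was called. The gene MBD5 overlaps ORC4 on the other strand and held 20.6% as many counts, so ORC4's level carries that uncertainty.

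The 197 bases upstream of the gene as the count table places it, chr2:148021605-148021801 (minus strand) in GRCh38.p14, are shown because ORC4 was the one gene not called. They hold no match to the E2F motif, the CCAAT box, the E-box or TTTGAA, and so have no capitals. The window of ORC4's other RefSeq start, which is not printed, held 1 E-box.
ORC4: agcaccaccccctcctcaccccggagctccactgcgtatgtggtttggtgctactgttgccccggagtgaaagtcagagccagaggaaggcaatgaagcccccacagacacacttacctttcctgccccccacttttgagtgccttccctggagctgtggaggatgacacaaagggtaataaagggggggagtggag

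The 3 licensing factors were all called lower, CDC6 by far more than the other two. CDC6, the ATPase that works with the origin recognition complex to load the helicase, was at 96.9, 95 and 106 CPM in controls and 4.79, 3.78 and 8.5 CPM with 8p (log2 fold change -4.13, SE 0.18, adjusted p = 1.03e-11). All 3 8p libraries were far below the controls, although 8p replicate 3 stood above the other two, and without it the log2 fold change was -4.56. CDT1, which brings MCM2-7 to the origin, was at 134, 146 and 136 CPM and then 28.2, 26.2 and 29.3 CPM (log2 fold change -2.31, SE 0.08). GMNN, whose product geminin binds CDT1 and prevents relicensing, fell by about as much as CDT1, with a log2 fold change of -2.35 (SE 0.12). The CDT1 and GMNN levels of the 8p libraries lay well apart from those of the controls.

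The 6 subunits of MCM2-7, the ring that unwinds DNA at the fork, were all called lower but by very different amounts. Their median log2 fold change was -2.73, and their summed level was 2656 to 2855 CPM in controls and 485 to 494 CPM with 8p. MCM4 had the most counts of the replication genes in controls, at 913, 912 and 878 CPM, and was at 67.1, 69.9 and 70.4 CPM with 8p (log2 fold change -3.70, SE 0.07, adjusted p = 1.03e-14). MCM2 was at 154, 169 and 148 CPM and then 12.5, 14.3 and 11.8 CPM (log2 fold change -3.61, SE 0.09). MCM6 was at 315, 338 and 328 CPM and then 30.5, 32.7 and 35.3 CPM (log2 fold change -3.32, SE 0.08). These 3 subunits were about 10-fold lower or more, and in none of them did a treated library come near a control.

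The other 3 ring subunits fell by less. MCM7 was at 577, 633 and 551 CPM in controls and 135, 126 and 136 CPM with 8p (log2 fold change -2.15, SE 0.07). MCM5 was at 305, 328 and 297 CPM and then 72.7, 72.2 and 76.6 CPM (log2 fold change -2.07, SE 0.07). MCM3, with the smallest fall of the ring, was at 457, 474 and 455 CPM and then 168, 179 and 161 CPM (log2 fold change -1.45, SE 0.07). MCM3 was still 2.73-fold lower, with no overlap between groups, and the 95% intervals of the log2 fold change of MCM3 (-1.59 to -1.31) and MCM4 (-3.86 to -3.55) lay far apart. TPRA1, on the other strand at the MCM2 locus, held 39.1% as many counts as MCM2 and overlaps it over 45 bases.

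The MCM6 promoter is printed in full because it held the most E2F matches of the windows searched. The 250 bases before its start, chr2:135876444-135876693 (minus strand) in GRCh38.p14, contain the run TTTGGCGCGAAA at 2 places, each a pair of overlapping matches on opposite strands, marked in capitals.
MCM6: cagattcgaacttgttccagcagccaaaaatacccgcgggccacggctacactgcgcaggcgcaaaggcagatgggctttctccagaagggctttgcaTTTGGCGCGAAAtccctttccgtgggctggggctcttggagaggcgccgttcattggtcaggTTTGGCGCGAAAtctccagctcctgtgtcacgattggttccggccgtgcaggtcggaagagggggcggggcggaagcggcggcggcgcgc
MCM6 was 9.96-fold lower with 8p. The MCM3 and MCM7 windows hold matches at 2 places each, and those genes were 2.73-fold and 4.44-fold lower.

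CDC45 and the 4 GINS subunits, which turn the loaded ring into the active CMG helicase, had the largest fall of any role with more than 2 genes, with a median log2 fold change of -3.22 and 5 of 5 called lower. CDC45 was at 84.5, 90.2 and 89.1 CPM in controls and 3.06, 3.36 and 3.37 CPM with 8p (log2 fold change -4.75, SE 0.11, adjusted p = 1.92e-14), a level 26.9-fold lower. GINS2 (log2 fold change -4.48, SE 0.16) was the GINS subunit with the largest fall, followed by GINS1 (log2 fold change -3.22, SE 0.14) and GINS3 (log2 fold change -3.15, SE 0.16). GINS4 was at 60.7, 62.6 and 48.9 CPM and then 11.4, 8.51 and 9.51 CPM (log2 fold change -2.55, SE 0.13). Even for GINS4, with the smallest fall here, the highest treated library was far below the lowest control. GSE1, on the other strand, held 277% as many counts as GINS2, though the genes overlap over only 7 bases.

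MCM10 and MCM8 share the MCM name with the ring subunits but act elsewhere: MCM10 helps to start the CMG helicase, and MCM8 works in homologous recombination and repair. MCM10 (chr10:13161554-13211104, hg38) had the largest fall of all 56 genes. It was at 65, 63.6 and 68.1 CPM in controls and 1.2, 1.56 and 1.01 CPM with 8p (log2 fold change -5.69, SE 0.14, adjusted p = 3.81e-14), a level 51.5-fold lower with a 95% interval of -5.98 to -5.39 for the log2 fold change. MCM8 was at 41.5, 41.7 and 38.6 CPM and then 10.8, 12.6 and 10.5 CPM (log2 fold change -1.84, SE 0.10). Both were clearly separated between groups, but MCM10 moved from above MCM8 in every control to below it in every treated library. That order also held per length of gene, with MCM10 at 12 and MCM8 at 5.28 CPM per kb in controls, and 0.23 and 1.47 CPM per kb with 8p.

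The MCM10 upstream sequence, chr10:13161308-13161553 (plus strand) in GRCh38.p14, is shown because the gene with the largest fall had no E2F match in its window. It ends where the gene starts in the count table, 246 bases in all, and capitals mark its 2 CCAAT boxes, counted on both strands (CCAAT or ATTGG).
MCM10: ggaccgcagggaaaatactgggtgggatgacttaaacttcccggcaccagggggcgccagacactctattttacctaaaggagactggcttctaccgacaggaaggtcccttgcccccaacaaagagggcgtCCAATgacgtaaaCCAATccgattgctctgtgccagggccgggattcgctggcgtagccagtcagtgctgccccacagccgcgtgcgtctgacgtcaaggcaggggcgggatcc

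All 5 genes of the S phase kinases and their cyclins were called lower, with a median log2 fold change of -2.11. CCNE1, which encodes cyclin E1, was at 30.2, 30.4 and 26.3 CPM in controls and 3.93, 2.82 and 2.43 CPM with 8p (log2 fold change -3.24, SE 0.16, adjusted p = 5.96e-11). CCNE2, for cyclin E2, was at 22.6, 23.2 and 25.2 CPM and then 2.6, 2.64 and 3.58 CPM (log2 fold change -3.01, SE 0.16). In the fit CCNE1 was 9.47-fold and CCNE2 8.06-fold lower, and no 8p library came near a control. INTS8 and NDUFAF6 overlap CCNE2 on the other strand and held 752.7% and 289.6% as many counts. Both were themselves called lower (log2 fold change -0.45 and -0.88), so the level and the fold change of CCNE2 are uncertain.

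Their kinase partner CDK2 was at 46.8, 41.9 and 50.7 CPM in controls and 12.6, 11.1 and 8.5 CPM with 8p (log2 fold change -2.11, SE 0.13). DBF4, the regulatory subunit that activates CDC7, was at 67.4, 67.1 and 73.7 CPM and then 19, 20.7 and 22.1 CPM (log2 fold change -1.75, SE 0.09). The CDC7 kinase itself had a log2 fold change of -1.82 (SE 0.10), close to that of DBF4. CDK2, CDC7 and DBF4 were thus lower by less than both cyclins, and none of them overlapped between groups. The gene SLC25A40 lies opposite DBF4, held 91.9% as many counts and was itself lower (log2 fold change -0.23).

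Polymerase alpha with primase makes the short RNA-DNA primers of both strands, and its 4 genes were all called lower with a median log2 fold change of -2.20. POLA1, the catalytic subunit, was at 52.8, 52.4 and 44.9 CPM in controls and 9.05, 9.29 and 10.7 CPM with 8p (log2 fold change -2.37, SE 0.11, adjusted p = 2.35e-11). PRIM2, the large primase subunit, was at 51.4, 50.4 and 51.9 CPM and then 23.6, 19.4 and 27.3 CPM (log2 fold change -1.13, SE 0.11), a smaller fall with a wider spread among the treated libraries. POLA2, the accessory subunit (log2 fold change -2.20, SE 0.17), and PRIM1, the catalytic primase subunit (log2 fold change -2.20, SE 0.13), fell about as far as POLA1. PRIM1 overlaps NACA on its own strand over 33 bases, and NACA, which rose, held 4433.6% as many counts. The pseudogene EEF1B2P3 lies opposite POLA1 and held 135.5% as many counts.

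Polymerase delta, which copies the lagging strand, was also lower in 3 of 3 subunits. POLD2, a shared accessory subunit, was at 229.9, 249 and 229 CPM in controls and 64.2, 59.8 and 58.3 CPM with 8p (log2 fold change -1.96, SE 0.07). POLD3, another accessory subunit, was at 52.2, 51 and 46.3 CPM and then 18.1, 18.5 and 19.5 CPM (log2 fold change -1.41, SE 0.09). The catalytic subunit POLD1 lay between them (log2 fold change -1.56, SE 0.08). No treated library reached a control library in any of the 3.

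Polymerase epsilon, which copies the leading strand, was split. POLE2, the subunit that links the polymerase to the CMG helicase, was at 27.5, 26.9 and 29.2 CPM in controls and 3.53, 1.68 and 3.51 CPM with 8p (log2 fold change -3.27, SE 0.19, adjusted p = 3.84e-10), 9.67-fold lower. POLE3, a histone-fold subunit that also belongs to a chromatin remodelling complex, was at 206, 203 and 224 CPM and then 102, 106 and 108 CPM (log2 fold change -1.0, SE 0.07). POLE, the catalytic subunit (log2 fold change -1.33, SE 0.09), and POLE4, the other histone-fold subunit (log2 fold change -1.28, SE 0.08), were near POLE3 rather than POLE2. All 4 were called lower, and the 95% interval of POLE2 (-3.68 to -2.86) did not meet that of POLE3 (-1.14 to -0.85).

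PCNA, the ring-shaped clamp that holds polymerases on DNA, was at 604, 583 and 672 CPM in controls and 239, 252 and 223 CPM with 8p (log2 fold change -1.38, SE 0.08, adjusted p = 1.82e-10). Per length it had the highest level of the 56 genes in both groups, 421 CPM per kb in controls and 162 CPM per kb with 8p. The 5 subunits of RFC, which open the clamp and close it around DNA, were all called lower. RFC3 was at 144, 134 and 153 CPM and then 18.6, 19.1 and 17.9 CPM (log2 fold change -2.95, SE 0.08). RFC2 was at 67.7, 67.5 and 74.7 CPM and then 29.7, 33.2 and 29.8 CPM (log2 fold change -1.18, SE 0.09). RFC3 was 7.74-fold lower and RFC2 only 2.26-fold, with both groups separate in each. RFC5 (log2 fold change -2.64, SE 0.21) and RFC4 (log2 fold change -2.20, SE 0.12) lay nearer to RFC3, and RFC1, the large subunit (log2 fold change -1.31, SE 0.08), nearer to RFC2. RFC5 varied among the 8p libraries, at 11, 3.9 and 8.3 CPM, and its log2 fold change moved to -3.01 with 8p replicate 1 left out and to -2.34 with 8p replicate 2 left out. EIF4A2 overlaps RFC4 on the other strand over 21 bases and WSB2 overlaps RFC5 over 437 bases, with 451.2% and 139.9% as many counts. EIF4A2 was higher (log2 fold change 0.55) and WSB2 lower (-1.05), so the level and the fold change of RFC5 are uncertain.

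RPA, the trimer that coats single-stranded DNA, was lower in 3 of 3 subunits. RPA3, the small subunit, was at 46, 46.7 and 58.5 CPM in controls and 13.2, 10.9 and 10.6 CPM with 8p (log2 fold change -2.12, SE 0.12). RPA2, the middle subunit, was at 131, 128 and 135 CPM and then 76.5, 65.4 and 79.3 CPM (log2 fold change -0.83, SE 0.08), one of the smallest falls. RPA1, the large subunit that makes most contacts with DNA, had a log2 fold change of -1.25 (SE 0.06). Groups were separate in each of them. UMAD1, which covers RPA3 on the other strand, held 35.0% as many counts.

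The enzymes that process Okazaki fragments were called lower in 3 of 3 genes. FEN1, the flap nuclease, was at 155, 160.2 and 183 CPM in controls and 15.3, 19.8 and 14.1 CPM with 8p (log2 fold change -3.34, SE 0.11, adjusted p = 9.92e-13). DNA2, the nuclease and helicase that takes long flaps, was at 22.6, 21.6 and 22.2 CPM and then 6.39, 8.39 and 9.65 CPM (log2 fold change -1.44, SE 0.14). LIG1, the ligase that seals the fragments, lay between them (log2 fold change -2.44, SE 0.08). FEN1 was 10.1-fold lower and DNA2 2.72-fold lower. TMEM258, on the other strand at FEN1, held 65.0% as many counts and was itself lower.

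The fork protection genes, whose products keep the helicase and polymerases together and pass on the checkpoint signal, had a median log2 fold change of -2.68 and were called lower in 4 of 4. CLSPN, for the checkpoint mediator claspin, was at 44.7, 44.2 and 38.7 CPM in controls and 3.59, 4.2 and 3.71 CPM with 8p (log2 fold change -3.47, SE 0.12, adjusted p = 1.69e-12). TIMELESS was at 123, 118 and 105 CPM and then 34.9, 42.4 and 35.2 CPM (log2 fold change -1.62, SE 0.09). Its binding partner TIPIN fell further than TIMELESS (log2 fold change -2.99, SE 0.15), and WDHD1, which tethers polymerase alpha to the fork, had a log2 fold change of -2.36 (SE 0.11). The 95% interval of TIPIN (-3.31 to -2.67) lay below that of TIMELESS (-1.82 to -1.42).

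CAF-1, the chaperone that places histones on new DNA, was measured through CHAF1A and CHAF1B. CHAF1B was at 44.2, 38.4 and 41.2 CPM in controls and 3.39, 1.92 and 2.36 CPM with 8p (log2 fold change -4.02, SE 0.16, adjusted p = 4.73e-12). CHAF1A was at 111, 118 and 108 CPM and then 27.6, 33.6 and 28.6 CPM (log2 fold change -1.91, SE 0.09). Both were separate between groups, with CHAF1B 16.2-fold lower and CHAF1A 3.75-fold lower. CHAF1B shares 771 bases with MORC3 on its own strand, which held 183.8% as many counts. UBXN6 overlaps CHAF1A on the other strand over 20 bases and held 139.6% as many. The levels of CHAF1A and CHAF1B therefore carry some uncertainty.

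**Figure D3:**
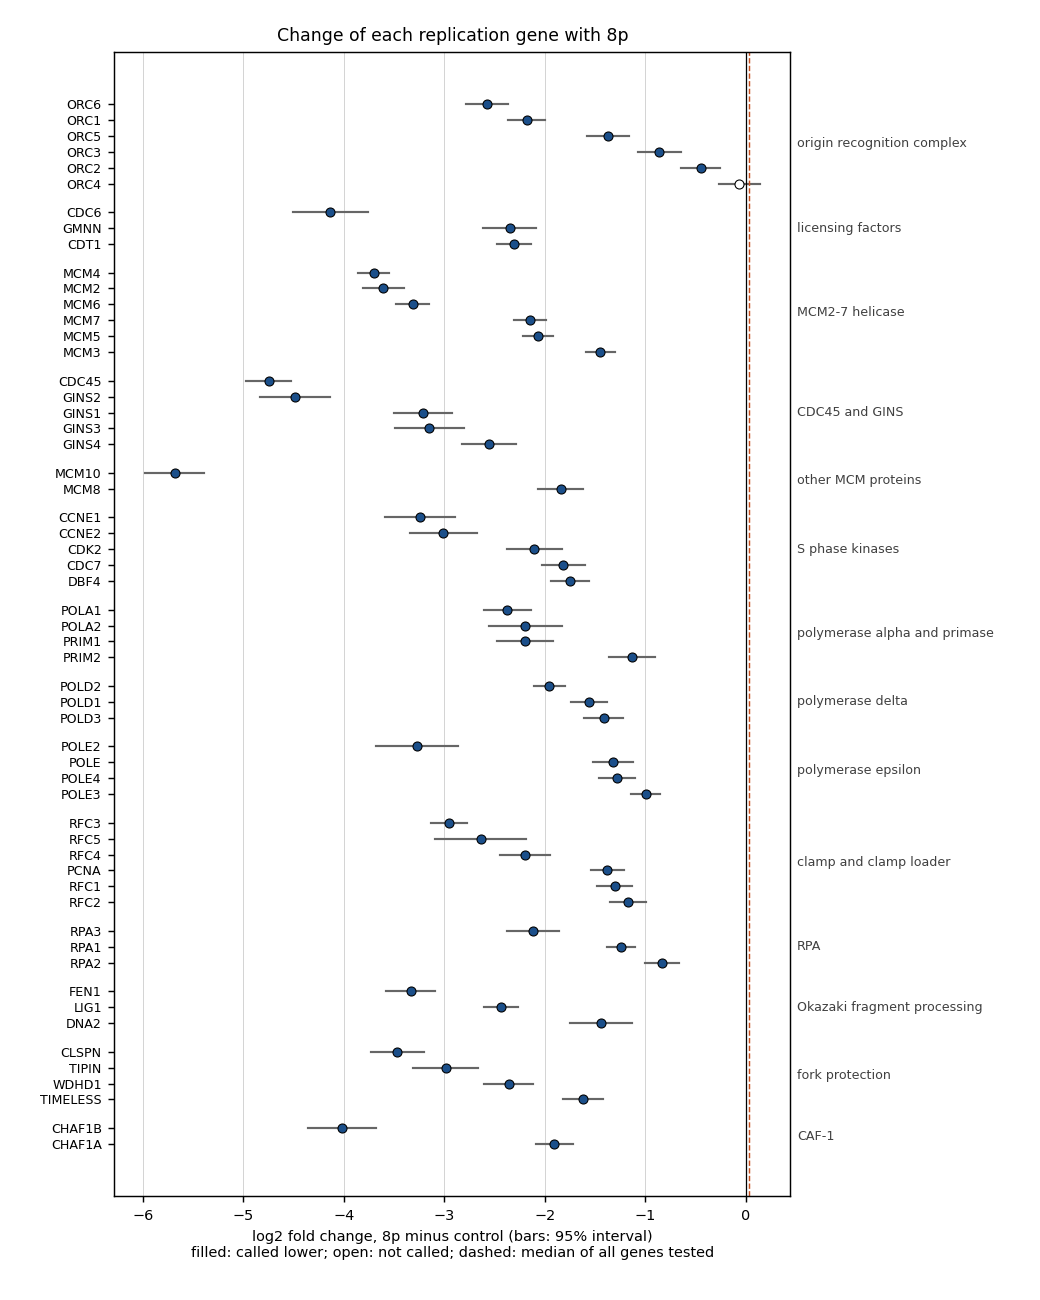
Log2 fold change of 8p against control for each of the 56 replication genes, grouped by role, with 95% intervals as bars. Filled points were called lower, the open point (ORC4) was not, and the dashed line is the median of all tested genes at 0.03; the points run from -5.69 for MCM10 to -0.07 for ORC4.

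Because subunits of one complex fell by different amounts, the makeup of each group's RNA also differed between conditions. Shares were taken from CPM per kb of the gene length given in the deposited data. The length of the transcripts expressed was not measured, so the order of genes within a group depends on that value. A share within a library does not depend on the scaling between libraries. In the ring, MCM3 made up 23.3% ± 0.366 of the MCM2-7 level in controls and 43.3% ± 1.88 with 8p (SD, n = 3). MCM4 went the other way, from 23.8% ± 0.646 to 9.27% ± 0.207, as did MCM6, from 14.6% ± 0.456 to 7.45% ± 0.54. The MCM7 share went from 24.6% ± 0.819 to 28.2% ± 1.41. None of the MCM3, MCM4 or MCM6 shares overlapped between the groups, though an exact permutation test of 3 libraries against 3 cannot give a two-sided p below 0.1.

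The origin recognition complex shifted in the same manner. ORC1 held 34.6% ± 2.3 of the complex's RNA in controls and 20.7% ± 0.395 with 8p. ORC6 went from 20.3% ± 0.402 to 9.26% ± 0.557. ORC2 went from 11.3% ± 1.02 to 22.5% ± 0.918 and ORC4 from 4.17% ± 0.216 to 10.9% ± 0.368, so that the largest share passed from ORC1 to ORC2. Among the CMG partners, CDC45 went from 32.3% ± 1.69 to 15.5% ± 1.07 and GINS4 from 11% ± 1.82 to 24.3% ± 5.39. In polymerase epsilon POLE2 went from 6.95% ± 0.0996 to 1.64% ± 0.616. The fork protection group came to be led still more by TIMELESS, at 46.7% ± 2.61 in controls and 68.5% ± 2.78 with 8p.

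**Figure D4:**
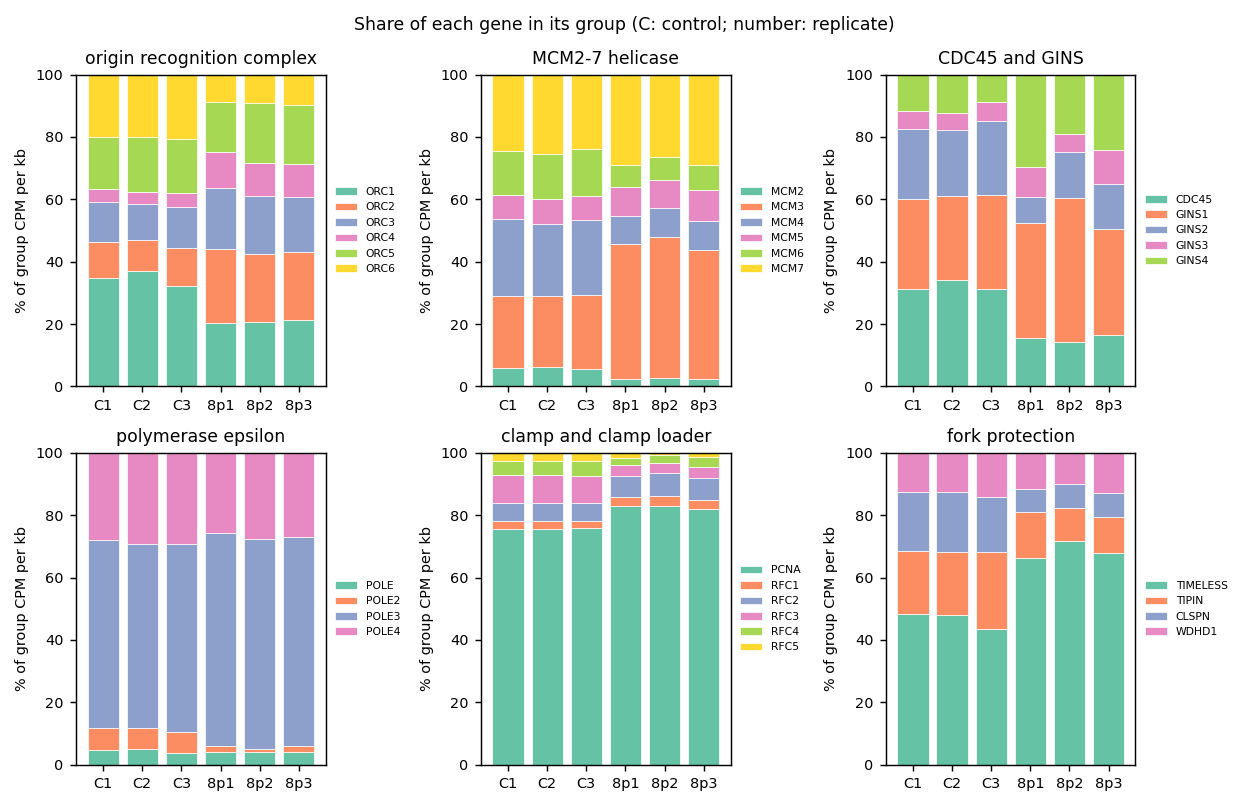
Share of each gene in its group's summed CPM per kb, as a percentage, in each of the 6 libraries (C, control; the number is the replicate). Replicates of one condition look alike, while the MCM3 share is 23.3% in controls and 43.3% with 8p and the MCM4 share 23.8% and 9.27%.

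The wider replication pathway was followed in 69 further genes on 5 lists, of which 50 were called lower, 10 higher and 9 neither, with a median log2 fold change of -1.10. Beside these and the counts of the single lists below, 36.9% of all tested genes were called lower and 37.9% higher. Other replication factors, such as origin firing factors and regulators of the clamp, were lower in 22 of 26, higher in 1 and not called in 3. The largest changes there were DSCC1 (log2 fold change -3.73), of an alternative clamp loader, and CDC25A (-3.49), the phosphatase that activates CDK2. Genes of nucleotide supply were lower in 10 of 12, with a median of -2.39. RRM2, the S phase subunit of ribonucleotide reductase, had a log2 fold change of -5.45 (SE 0.17), and TYMS, thymidylate synthase, one of -3.98 (SE 0.13). Histone chaperones and partners of the clamp were lower in 8 of 8, led by ASF1B (-3.23) and UHRF1 (-2.30), a histone chaperone and a factor that maintains DNA methylation.

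The last 2 lists were the S phase checkpoint and the specialised polymerases. Checkpoint genes were lower in 7 of 11, higher in 2 and not called in 2, with a median log2 fold change of -0.79. CHEK1, the kinase that slows origin firing under stress, had a log2 fold change of -2.69 (SE 0.12), and WEE1, which restrains the cyclin-dependent kinases, one of -1.72 (SE 0.11). The higher ones were ATM (0.46) and RAD9A (0.33). Of 12 repair and translesion polymerase genes 3 were lower, 5 higher and 4 not called, with a median of 0.08, which is near the shares and the median of all tested genes. MAD2L2 (-1.97) and POLQ (-1.81), a subunit of polymerase zeta and the polymerase of end joining, had the largest changes on that list. No test compared these lists with the 56 replication genes.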

How the data were processed

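The deposited table holds raw whole-number read counts per gene, which the authors had not normalized, and gene lengths in bases. Per the submitters' processing notes the genome build was hg38, and the tools named were edgeR 3.22.5, DESeq2 1.20.0, HISAT2 2.0.5 and featureCounts 1.5.0-p3, with no roles stated. Whether counting used strand is not stated in the labels. Reads from bases that a gene shares with a partner on the other strand therefore cannot be told apart. Partners with at least 10% of a gene's counts are named, however short the overlap. Per the labels' protocols, mRNA was enriched by poly(A) capture or removal of ribosomal RNA, without saying which. All count columns matched a labelled sample.

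Counts were tested in R 4.3.3 with the quasi-likelihood test of edgeR 4.0.16 (TMM factors, filterByExpr, group as the only term), adjusted by Benjamini-Hochberg over 13822 genes. CPM uses the TMM factors, and CPM per kb divides it by gene length. The TMM factors rest on most genes being unchanged. Here 36.9% of tested genes were called lower and 37.9% higher, so that premise is in doubt. Changes are relative to other transcripts. Alternatives were DESeq2 1.42.0, limma-voom (limma 3.58.1), 4 scalings, 2 filters, a replicate block, 2 thresholds, protein-coding genes alone and each library left out. The pipeline was also run on simulated counts in which only a small part of the genes changed. That simulation did not cover changes as many or as large as those seen here, so no result rests on it.

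The genes, lists and tests were chosen with earlier results of these data known. Each library's value was given for the genes with the largest and smallest log2 fold change in each of 14 roles, MCM2 to MCM7, PCNA, CCNE1, CCNE2, CDK2, and any gene not called. From each further list the 2 called genes with the largest change were named, and ATM, RAD9A and POLD4 were added after their values were seen.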

Additional observations from a re-analysis of the deposited data

How the results depend on the processing

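The count of 55 replication genes called lower, and of none called higher, held under DESeq2, limma-voom, all 4 scalings, both filters on low counts, an adjusted p under 0.01, protein-coding genes alone and each library left out in turn. Under these settings the share of all tested genes called lower ran from 19.7% (DESeq2, 26595 genes) to 38.7% (protein-coding genes alone), and it was 30.8% with upper quartile factors. Requiring at least a 2-fold change by edgeR's glmTreat left 50 called lower, without ORC2, ORC3, PRIM2, POLE3 and RPA2. It left 32 of the 69 further pathway genes called lower in place of 50. Of all tested genes, 12.9% were called lower by glmTreat. The median log2 fold change of the 56 genes was -2.0 with upper quartile factors, which moved the median of all genes from 0.03 to 0.22, and -2.31 with no filter on low counts. Leaving out one library gave medians from -2.25 to -2.16. No gene moved by over 1.5 times when a library was left out, and the largest shift on the log2 scale was 0.42, for CDC6. Counts behind the values were fewest for MCM10 with 8p, at 18, 26 and 15 per library, against 394, 423 and 385 for ORC4. Libraries with the same replicate number did not deviate together (correlations 0.0012, -0.035 and -0.054), so the numbers were not taken as pairs. With a replicate block 55 genes were called lower, the median was -2.19, and no call changed.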

Other observations

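Some replication genes share a start region with a gene read in the other direction, and those neighbours were measured too. Of the 56 genes, 12 had a tested neighbour on the other strand whose start lay within 1000 bases upstream. A neighbour whose start lay inside the replication gene was not counted, so pairs that overlap at their starts are left out. Of these neighbours 7 were called lower, 1 higher and 4 not called, with a median log2 fold change of -0.63, where 36.9% of all tested genes were called lower and 37.9% higher. PRKDC, the catalytic subunit of the DNA-dependent protein kinase and the neighbour of MCM4, had a log2 fold change of -1.83. TRMT6, the neighbour of MCM8, had one of -1.53, and PXMP2, the neighbour of POLE, one of -1.69. CDS2, which starts 160 bases from PCNA, was higher, with a log2 fold change of 1.03, while PCNA had one of -1.38. MAP2K1, ZSWIM9, SOCS4 and LIPT2, beside TIPIN, LIG1, WDHD1 and POLD3, were not called. Starts of neighbours and replication genes were here those of the count table. The E2F site shown for TIPIN lies at another RefSeq start, inside the gene as the count table places it, and not beside MAP2K1.

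Some genes of the pathway lists were higher with 8p; those named here were chosen after their values were seen. SAMHD1, which breaks down deoxynucleotides, was at 43.3, 45.3 and 43.8 CPM in controls and 308, 282 and 309 CPM with 8p (log2 fold change 2.76, SE 0.07, adjusted p = 6.94e-14). It was 6.79-fold higher, with no overlap between groups. RRM2B, the ribonucleotide reductase subunit induced by p53, had a log2 fold change of 0.51 (SE 0.07). POLD4, the smallest polymerase delta subunit, was at 7.8, 7.8 and 7.24 CPM and then 16.2, 21.9 and 18.7 CPM (log2 fold change 1.31, SE 0.14). POLI, a translesion polymerase, and POLG2, the accessory subunit of the mitochondrial polymerase, had log2 fold changes of 1.07 and 0.98.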
